A study of Mus musculus and Homo sapiens with 12 samples.

Results

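The most abundant long non-coding RNAs (lncRNAs) on the chromatin of K562 cells are described here. The set held every autosomal gene of the lncRNA biotype in GENCODE 44 with at least 3000 counts summed over the 3 K562 Input libraries, apart from MALAT1, NEAT1, MEG3, H19, KCNQ1OT1, PVT1, GAS5, ZFAS1, RMRP, RPPH1 and the SNHG genes, which were left out by name. It comprised 166 genes of the 14419 autosomal lncRNA genes and of the 58721 human genes with a count. Of the genes left out by name, 6 would have passed the level. Because Input counts chose the genes, their Input levels are given as a description and were not tested. The same Input libraries are the denominator of the IP/Input ratio, so a gene that was counted high in Input by chance also has a ratio shifted down, and choices made on other Input libraries are given beside the ratio.

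The study sequenced chromatin-associated RNA (caRNA), the RNA that stays with the chromatin pellet when nuclei are fractionated, before (Input) and after (m5C-IP) immunoprecipitation with an antibody against RNA 5-methylcytosine. K562 is a human erythroleukaemia line grown in suspension, and it was used here as wild type, with no TET2 or MBD6 change. The same 2 fractions were made from wild-type mouse embryonic stem cells (mESC). Each line had 3 Input and 3 IP libraries from untreated cells, and the study describes its genome-wide replicates as biological. The labels do not say whether the numbered libraries came from separate cultures, so p-values measure only the spread between these libraries. K562 is 1 line, and nothing here carries over to other leukaemia cells.

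lncRNA genes make transcripts that are spliced and capped like messenger RNAs but are not known to be translated, and many of these transcripts stay close to the locus that makes them. Some are divergent transcripts, started next to a protein-coding gene on the other strand. Others run antisense across a gene, host a microRNA in an exon or intron, or lie alone between genes (LINC names). Cytosine methylation on RNA is written by NSUN-family enzymes and DNMT2, and antibodies against it pull down fragments that hold the modified base. An IP/Input ratio therefore reads a relative share of a gene's fragments in the IP, not a stoichiometry of methylation.

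The K562 Input libraries held 10477119 to 11865285 counts in genes, and the IP libraries held 93110 to 111286. The 166 lncRNAs had 3063 to 79954 summed Input counts (median 6151.5) but only 13 to 646 summed IP counts (median 40.5), so the IP sets the error. The coefficient of variation between libraries had a median of 1.82% in Input and 21.8% in IP, against 2.21% and 27.2% given by counting alone. A median SD of 3 values runs below the true spread, so these medians do not place the spread below counting noise. Chi-square per degree of freedom was taken over genes with at least 20 counts in the pair. Input libraries 1 and 2, and 1 and 3, differed by less than the sampling noise (0.905 and 0.915). Input libraries 2 and 3 differed slightly more (1.04). The IP pairs 1 and 2, 1 and 3, and 2 and 3 differed by more than the sampling noise, at 1.18, 1.26 and 1.19. The Input libraries were kept as 3 samples, and the counts of calls with all 3 summed as 1 sample are given too. The labels call the K562 cells lymphoblasts. Of 10 erythroid and K562 markers 8 were above 1 CPM (counts scaled to the library's gene counts) in Input, and HBG2 and HBE1 were listed at 0. The 10 together reached 667 to 689 CPM in Input and 806 to 961 CPM in the IP. The 6 lymphoid markers together stayed at 2.20 to 4.16 CPM in Input and 9.26 to 53.9 CPM in the IP, with MS4A1 at 0 in Input, and the 2 epithelial markers at 5.64 to 7.50 CPM in Input. The antibody field of the labels names the m5C antibody for the K562 Input as well as for the IP. The titles set the groups here.

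The first exons of 2 of the genes are printed to show what the RNA's 5′ end looks like, with every cytosine, the base that can carry m5C, in capitals. ENSG00000266976 was the gene with the highest IP/Input ratio and GMDS-DT the gene with the lowest ratio. The bases come from the hg38 (GRCh38) genome at the first exon of the canonical GENCODE 44 transcript, cut at 150 bases and written 5′ to 3′ along the RNA strand. They lie at chr19:28606688-28606837 (plus strand) and chr6:2245736-2245885 (plus strand).
ENSG00000266976: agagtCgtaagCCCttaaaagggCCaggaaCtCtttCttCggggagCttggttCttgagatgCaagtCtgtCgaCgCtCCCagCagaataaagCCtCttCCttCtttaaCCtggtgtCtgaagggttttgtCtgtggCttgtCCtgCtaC
GMDS-DT: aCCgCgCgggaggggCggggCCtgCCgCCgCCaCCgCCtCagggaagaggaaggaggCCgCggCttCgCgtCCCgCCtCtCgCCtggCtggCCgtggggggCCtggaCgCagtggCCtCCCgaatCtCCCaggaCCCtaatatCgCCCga
Cytosines made up 24% of the stretch of ENSG00000266976 and 37.3% of that of GMDS-DT. GMDS-DT, which had the lowest ratio, had 18 CpG dinucleotides in 150 bases, and ENSG00000266976, which had the highest, had 4. The counts are of whole genes, and no IP value belongs to the first exon alone.

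As a class, the abundant lncRNAs took a smaller share of the IP than of the Input. They made up 4.69%, 4.64% and 4.72% of gene counts in the 3 Input libraries and 3.44%, 3.37% and 3.45% in the 3 IP libraries. The 10 most abundant made up 1.12 to 1.15% of Input and 0.880 to 0.961% of IP. All autosomal lncRNA genes together moved the other way, from 7.39 to 7.44% of Input to 9.66 to 9.90% of IP. The 6 genes left out by name were part of that, with 0.209 to 0.218% of Input and 0.783 to 0.840% of IP. MALAT1, the nuclear speckle RNA, had 4986 to 5115 counts in Input and 521 to 599 counts in the IP, and its IP level of 5367 ± 236.5 CPM (SD, n = 3) exceeded that of each of the 166 genes. Both the level and the names left out are part of the rule, so the opposite directions of these shares are a description and were not tested.

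In edgeR's quasi-likelihood test over 14522 genes, with TMM scaling (factors that centre the bulk of the tested genes between libraries) and a threshold of 0.05 on the adjusted p, 121 of the 166 lncRNAs were lower in the IP, 1 was higher and 44 did not pass. Over all tested genes 16.4% were lower and 15.1% were higher. The share lower was larger among abundant genes. Among the 2964 autosomal protein-coding genes with at least 3000 Input counts, 52.8% were lower and 3.14% higher, against 72.9% and 0.602% of the lncRNAs. The median log2 IP/Input was −0.73 for the lncRNAs, −0.56 for those protein-coding genes and −0.16 for all tested genes. In 114 of the 166 genes every IP library lay below every Input library in CPM, which held for 24.4% of all tested genes and 50.5% of the abundant protein-coding genes, and in 6 every IP library lay above, against 22.4% and 9.41%. With the 3 Input libraries summed as 1 sample, 91 lncRNAs were lower and 1 was higher, against 9.41% and 11.4% of all tested genes. Without Input library 1, 2 or 3 the filter on low counts left 3722, 3721 and 3726 genes to test, and 36, 44 and 43 lncRNAs were lower and 6 higher in each case, with a median log2 IP/Input of −0.29 for the lncRNAs in each. Of all genes tested there 10.6%, 12.1% and 12.3% were lower and 18.6%, 19.4% and 19.2% higher. Of the abundant protein-coding genes 11.8%, 13.3% and 13.6% were lower. The gap between the medians of the lncRNAs and these protein-coding genes was −0.18, −0.18 and −0.19, against −0.17 with all libraries. Values of single genes without 1 Input library, given below, come from these fits and share the move of the median.

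How many passed depended on where 0 was set. With scale factors computed over genes with at least 3000 Input counts 31 were lower and 10 higher, and the median of all tested genes then stood at 0.38, with 2.3% of all genes lower and 23% higher. With library size alone 76 were lower and 4 higher, and that median stood at 0.11, with 7.52% lower and 17.7% higher. After a correction that removed each library's trend with exon GC content, drawn from genes with at least 50 CPM in Input, 18 were lower and 7 higher, and that median stood at 0.27, with 2.08% lower and 19.8% higher. Of the abundant protein-coding genes 7.59%, 25.9% and 6.75% were lower under these 3 settings in that order. The GC correction was run without the TMM factors, so it also moved 0. The median of the abundant protein-coding genes was −0.56 as reported and −0.035 after it. Values of single genes after the GC correction, given below, share this move, and the part due to GC content was not separated. A scale factor shifts all genes by the same amount, so the gap between the medians of the lncRNAs and the abundant protein-coding genes, −0.17 on the log2 scale, cannot move with it. The gap was −0.214 with Input thinned to the IP depth and −0.0924 after the GC correction. In CPM ratios the gap was −0.13, −0.21 and −0.17 in IP libraries 1, 2 and 3, so it had the same sign in all 3. Of the 166 genes 113 lay below the protein-coding median and 53 above it. Where the lncRNAs were chosen on 2 Input libraries and tested against the remaining one with the IP, 164 to 168 genes were tested, 31 to 34 were lower and 2 to 4 higher, against 6.33%, 5.91% and 6.65% lower and 10.3%, 9.87% and 10.5% higher of all genes tested and 7.58 to 8.5% lower of the abundant protein-coding genes, and the gap was −0.20, −0.17 and −0.18.

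**Figure D1:**
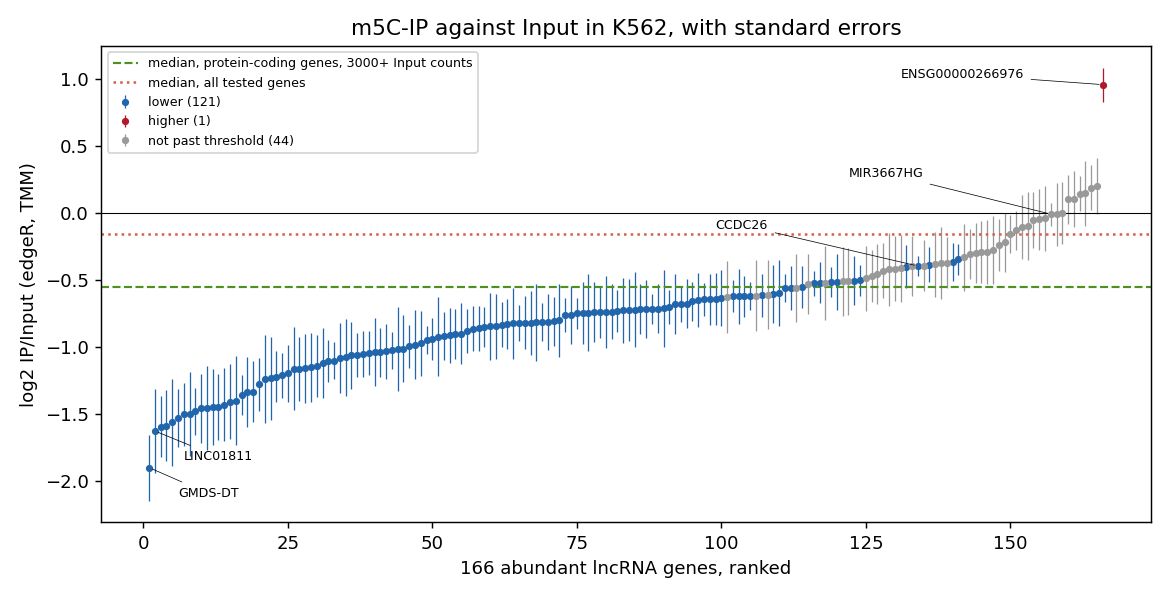
Each point is 1 of the 166 abundant lncRNA genes, ranked on the x axis by its log2 IP/Input (y axis, edgeR with TMM), and bars are standard errors from the fit over 3 Input and 3 IP libraries. Blue points (121) were lower, the red point (1, ENSG00000266976) was higher and grey points (44) did not pass. Most points lie below the dashed line, the median of equally abundant protein-coding genes at −0.56.

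**Figure D2:**
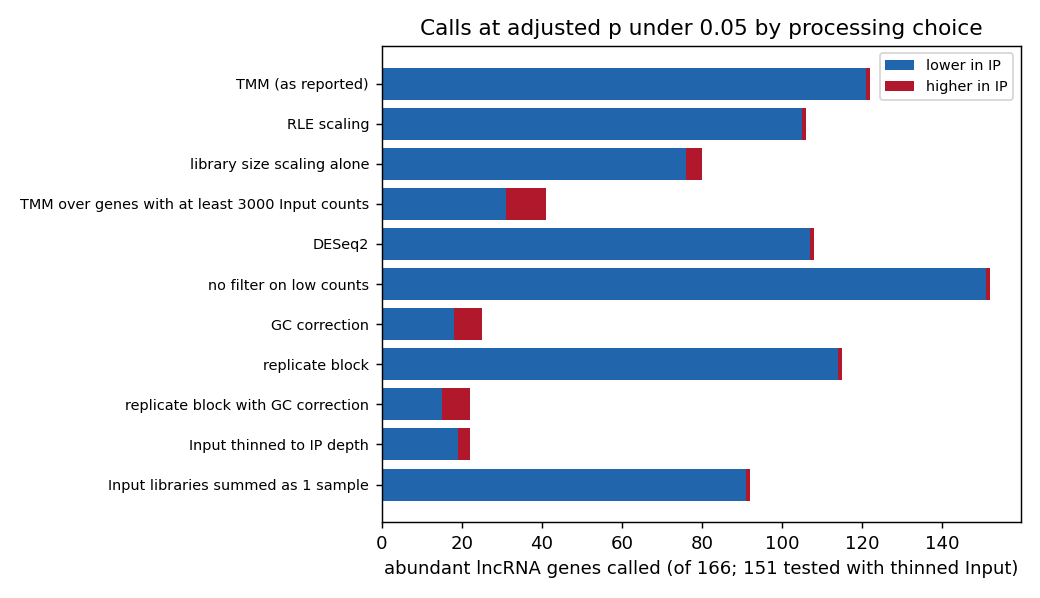
Bars start at 0 and give the number of the 166 lncRNA genes called lower (blue) and higher (red) in the IP at an adjusted p under 0.05, 1 bar for each processing choice. With Input thinned to the IP depth only 151 of them were tested. The number lower ran from 15 with the replicate block and the GC correction to 151 with no filter on low counts. Among all tested genes the shares lower under these settings were 1.49% and 12.7%.

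ENSG00000266976 stood apart at the upper end. It is an unnamed lncRNA gene on the plus strand at chr19:28606688-28615229, with 4778 bp of merged exons and a GC content of 47.5%. Its Input counts were 2902, 2799 and 2677 and its IP counts 53, 59 and 61. In CPM these were 247.6 ± 6.93 in Input and 558.8 ± 85.7 in the IP (SD, n = 3 each). All 3 IP libraries were above all 3 Input libraries, and the log2 IP/Input was 0.96 ± 0.13 (SE, edgeR adjusted p = 6.12e-11). It was higher in each of the 16 alternatives run over the whole list, with values of 0.75 to 1.42 when single libraries were left out. Its nearest neighbour in the set, LINC00662, lies within 1 Mb on the same chromosome arm and had 4317, 4082 and 3746 Input counts but 27, 26 and 17 IP counts. LINC00662 was lower, at −0.88 ± 0.16 on the log2 scale (SE, edgeR adjusted p = 2.49e-06), though at −0.15 it did not pass after the GC correction and it lay at −0.43 without Input library 1.

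At the other end, GMDS-DT had the lowest ratio of the set. It is the divergent transcript of GMDS, which encodes the GDP-mannose dehydratase of fucose synthesis, and spans chr6:2245718-2525976 on the plus strand. It had 2672, 2674 and 2390 Input counts and 6, 7 and 9 IP counts. The 2 fractions did not overlap, with 228.4 ± 3.32 CPM in Input and 71.7 ± 21.9 CPM in the IP (SD, n = 3 each). The log2 IP/Input was −1.90 ± 0.25 (SE, edgeR adjusted p = 1.77e-11), and GMDS-DT was lower in each of the 16 alternatives. GMDS itself was lower too, at −1.07 (edgeR adjusted p = 1.88e-09), 0.83 above its divergent partner. The difference within the pair was not tested.

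The other 7 genes at the low end had 13 to 32 IP counts each over the 3 libraries, so single libraries weigh heavily. LINC01811 on chromosome 3 had 2, 9 and 3 IP counts against 1430, 1407 and 1237 Input counts, and its log2 IP/Input was −1.63 (edgeR adjusted p = 6.15e-06). Without IP library 2 its value was −2.56, over 1.5 times as large. LINC01192, also on chromosome 3, had 10, 7 and 3 IP counts against 1966, 1933 and 1760 in Input and a log2 value of −1.59 (edgeR adjusted p = 1.71e-07). Both genes lay below every Input library in each IP library.
ENSG00000267327 on chromosome 18 had 10, 11 and 7 IP counts against 2798, 2714 and 2449 in Input, a log2 value of −1.60, and 88.9 ± 12.3 CPM in the IP (SD, n = 3). ENSG00000258081 on chromosome 14 had 14, 8 and 10 IP counts and a log2 value of −1.54. ENSG00000283415 on chromosome 11 had 5, 5 and 3 IP counts and a value of −1.57. For all 3 the name carries no function, and all 3 passed the test at adjusted p-values of 9.01e-10, 6.57e-10 and 2.93e-05.
LINC01446 on chromosome 7 had 11, 6 and 10 IP counts and a log2 value of −1.50 (edgeR adjusted p = 2.19e-08). SLC2A1-DT, the divergent transcript of the gene for the glucose transporter GLUT1, had 3, 4 and 8 IP counts and a log2 value of −1.50 (edgeR adjusted p = 2.78e-05). Its partner SLC2A1 was also lower, at −0.92. GMDS-DT, LINC01811, LINC01192, ENSG00000267327, ENSG00000258081 and LINC01446 were lower in all 16 alternatives, and SLC2A1-DT and ENSG00000283415 each lost the call in 1. After the GC correction their values lay nearer to 0, at −1.34, −0.98, −0.85, −0.90, −0.72 and −0.78 for the first 6 in that order and −1.08 and −0.93 for the last pair.

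Over the whole set, 16 genes were lower under TMM, RLE, library size alone, scaling on abundant genes, DESeq2 and the GC correction alike, and 11 of them were lower in every alternative in which they were tested. These 11 include SCHLAP1, a lncRNA known from prostate cancer, with 5524, 5160 and 4919 Input counts and 33, 25 and 19 IP counts. Its log2 IP/Input was −1.11 (edgeR adjusted p = 7.51e-10). LINC02307 on chromosome 14 had 4721, 4551 and 4138 Input counts and 18, 18 and 15 IP counts, a log2 value of −1.48. ENSG00000234426 on chromosome 6 had 6615, 6374 and 5845 Input counts and 28, 30 and 20 IP counts, a log2 value of −1.36. After the GC correction these stood at −0.54, −0.89 and −0.73. SCHLAP1, LINC02307 and ENSG00000234426 are named because they belong to this group of 11 and were chosen after their values were seen. How many protein-coding genes, or genes of any kind, were lower under all of these settings is not given here. The group is thus not shown to be particular to lncRNAs. Under the GC correction alone 10.8% of the lncRNAs, 6.75% of the abundant protein-coding genes and 2.08% of all tested genes were lower.

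The 10 most abundant genes lay nearer to 0 than these, and 8 of the 10 changed sign under at least 1 of the scalings or the GC correction. CCDC26, a transcript of the 8q24 region studied in myeloid leukaemia, had by far the most counts, 27955, 26863 and 25136 in Input and 251, 219 and 176 in the IP. It took 2361 ± 35.4 CPM of Input and 2061 ± 232.1 CPM of IP (SD, n = 3 each), with a log2 IP/Input of −0.40 (edgeR adjusted p = 1.69e-06). The direction did not hold. CCDC26 stood at 0.15 with scaling on abundant genes, and at 0.35 after the GC correction, where it passed as higher. The median of all tested genes stood at 0.38 and 0.27 under these settings. Without any 1 of the Input libraries, where the median of the set stood at −0.29, CCDC26 stood at 0.03 to 0.05 and did not pass. Its merged exons total 51118 bp.
ENSG00000189229 on chromosome 3 had 16361, 15454 and 14758 Input counts and 114, 130 and 100 IP counts, a log2 value of −0.53, which turned to 0.17 after the GC correction. MGC4859 on chromosome 7 had 15180, 14245 and 13433 Input counts and 70, 91 and 75 IP counts, a log2 value of −0.95 (edgeR adjusted p = 1.68e-15), and −0.50 to −1.10 without single libraries. It lost the call under the GC correction, at −0.23.
MIR3667HG, a microRNA host gene on chromosome 22, was the exception among the 10. Its Input counts were 13964, 13684 and 12133 and its IP counts 174, 116 and 130, and the fractions overlapped at 1174 ± 14.4 and 1350 ± 287.6 CPM (SD, n = 3 each). Its log2 IP/Input of −0.01 did not pass (edgeR adjusted p = 0.945), and at 57.4% its exons had the highest GC content of the 10. It did not pass after the GC correction, at 0.18, but passed as higher in 6 of the 16 alternatives. Among these were library size alone (0.26), scaling on abundant genes (0.54) and thinned Input (0.46), while with no filter on low counts it passed as lower (−0.36).
The other 6 all passed as lower. LINC02476 stood at −0.75, DLEU1 at −0.72, LINC00534 at −0.62, MIR3681HG at −0.56, EPIC1 at −0.52 and ENSG00000230258 at −0.51. After the GC correction DLEU1 remained below 0, and the other 5 of these 6 lay between 0.00046 and 0.098. Without any 1 Input library ENSG00000189229, DLEU1, LINC00534, MIR3681HG, EPIC1 and ENSG00000230258 kept a negative value, the one nearest to 0 being −0.07, −0.27, −0.17, −0.12, −0.07 and −0.06 in that order, and did not pass. LINC02476 lost the call without Input library 1 or 3, with −0.29 nearest to 0. ENSG00000285822, TTN-AS1 (antisense to the titin gene) and PITX1-AS1 were the other genes among the 8 highest ratios of calls without overlap between fractions, at −0.39, −0.55 and −0.56, and had 140, 84 and 72 summed IP counts. ENSG00000285822 and TTN-AS1 turned to 0.23 and 0.12 after the GC correction. Without any 1 Input library none of the 3 passed, and the values farthest up were 0.07, −0.09 and −0.12.

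**Figure D3:**
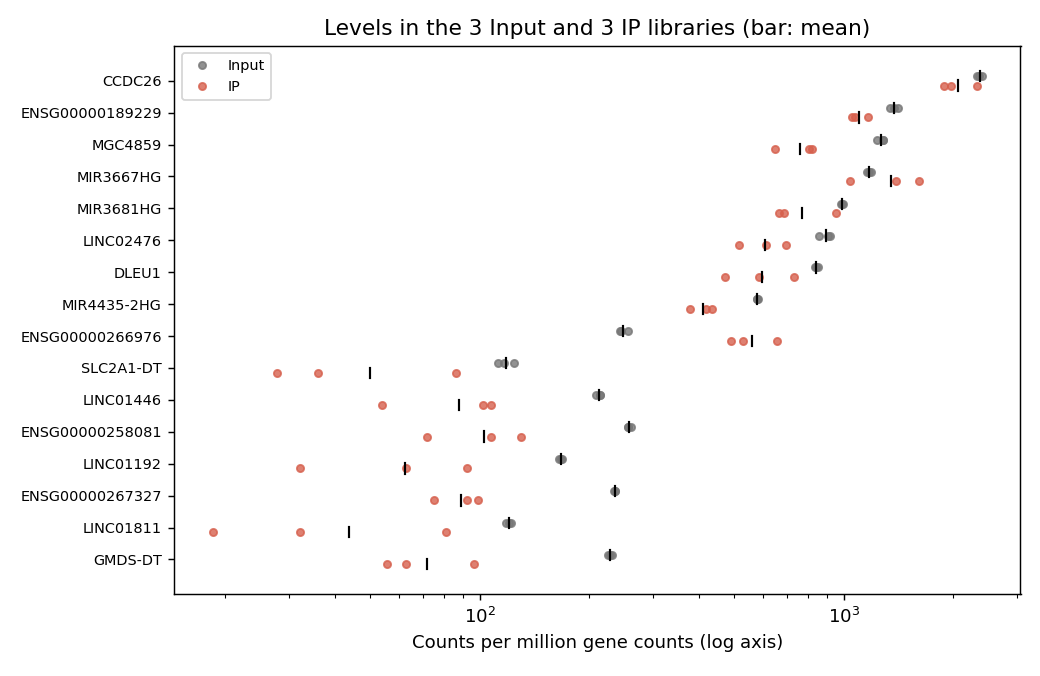
Points are levels in CPM in the 3 Input (grey) and 3 IP (red) libraries of 16 named lncRNA genes on a log axis, and the bar marks the mean of 3. Input points lie almost on each other, and IP points lie to the left of Input except for ENSG00000266976, where they lie to the right, and MIR3667HG, where they lie on both sides.

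Among 20 lncRNAs with a described role, 11 had enough counts to be tested. None was higher and 3 were lower, against 16.4% lower over all tested genes. Of the 20, 2 were abundant here, CCDC26 and MIR4435-2HG. MIR4435-2HG, a host gene known for a role in the lifespan of myeloid cells, had 6846, 6668 and 6096 Input counts and 47, 42 and 39 IP counts, and was lower at −0.71 ± 0.13 on the log2 scale (SE, edgeR adjusted p = 1.92e-06). Without any 1 Input library it did not pass, and the value nearest to 0 was −0.26. CYTOR, LINC-PINT, HOTAIRM1 and OIP5-AS1 were listed at 0 in all 6 libraries, so nothing can be said of them. MIR17HG, host of the miR-17-92 cluster, fell just short of the level with 2914 Input counts, and CALCRL-AS1 and CTC-338M12.4 with 2949 and 2937. Just inside it lay COPB2-DT with 3146, MCM3AP-AS1 with 3118 and PAX8-AS1 with 3063. None of these 6 passed the test in either direction.

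DLEU1 and DLEU2, 2 genes of the 13q14 region that is often deleted in chronic lymphocytic leukaemia, overlap on opposite strands. DLEU2 hosts the microRNAs miR-15a and miR-16-1. DLEU1 had 9870, 9669 and 8885 Input counts and 51, 65 and 68 IP counts, and DLEU2 had 3060, 2911 and 2680 Input counts and 21, 20 and 15 IP counts. Their log2 values were the same to 2 decimals, −0.72 each, and both passed. Neither passed after the GC correction, at −0.06 and −0.07, or without any 1 Input library, where the values nearest to 0 were −0.27 and −0.27. DLEU2 spans chr13:49956670-50125720 and DLEU1 chr13:50082169-50906856, so they share only part of their length. The use of strand in counting is not given, so reads from the shared stretch cannot be told apart. Dleu2 was the counterpart found in the mouse annotation (chr14:61602839-61682373, GRCm38). In mESC it had 256.3 ± 0.917 CPM in Input and 107.9 ± 4.12 CPM in the IP (SD, n = 3 each), with 7440, 8494 and 8871 Input counts and 53, 61 and 64 IP counts. The log2 IP/Input was −2.22 ± 0.11 (SE, edgeR adjusted p = 2.06e-11). In mESC 42% of all tested genes were lower, 39.9% higher and 82% one or the other, and their median stood at −0.17. The difference between the lines was not tested, as the tables were counted on different genomes.

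The name classes of the set differed in their counts, with the error of single genes behind each count. Of 49 LINC genes 39 were lower (median log2 −0.82), and of 40 genes without a symbol or named for a clone 34 were lower and 1 higher (−0.79). Of 46 antisense genes 27 were lower (−0.63), of 13 divergent genes 7 (−0.64), of 6 microRNA hosts 4 (−0.63) and of 12 other named genes 10 (−0.72). Of the abundant protein-coding genes 52.8% were lower, and of all tested genes 16.4%. Median GC content of the classes, in that order, was 40.6%, 42.2%, 44.4%, 43.6%, 47.2% and 43.2%. After the GC correction their medians were −0.15, −0.16, −0.05, −0.07, −0.07 and −0.10. Class and base composition cannot be told apart here. The exons of 60 genes overlapped a protein-coding exon, 57 of them on the opposite strand, and 33 of these 60 were lower (55.0%, median −0.61). Of the 106 genes free of such overlap 88 were lower (83.0%, median −0.82). Their median GC content was 41.4%, against 44.3% for the overlapping genes, so overlap and base composition cannot be told apart here. After the GC correction the medians of these 2 groups were −0.15 and −0.06.

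The ratio went with base composition. The Spearman correlation of log2 IP/Input with exon GC content was 0.37 over the 166 genes (Pearson 0.38) and 0.48 over the 2964 abundant protein-coding genes, points that share the same 6 libraries. Cytosine content alone gave 0.32, CpG density 0.26, exon length 0.22 and Input CPM −0.10 over the 166. Split into 3 parts by GC content, 46 of 56 genes were lower in the lowest part with a median of −0.85, 46 of 55 in the middle part (−0.76) and 29 of 55 in the highest part (−0.53). The lncRNAs had a lower median GC content than the protein-coding genes, 43.1% against 45.1%. Compared within the same GC window, the lncRNA median lay below the protein-coding median in all 5 windows, by 0.15, 0.09, 0.09, 0.12 and 0.12 on the log2 scale from the lowest window (30 to 38%) to the highest (50 to 70%). In these windows 83.3%, 82.6%, 79.6%, 54.5% and 42.9% of the lncRNAs were lower, from the lowest window to the highest. The abundant protein-coding genes fell in the same order, with 75.4%, 70.1%, 63.6%, 51.1% and 26.6% lower, so the fall in calls is not particular to the lncRNAs. The highest window held 14 lncRNAs and the lowest 24. The 7 genes called higher after the GC correction were ENSG00000266976, LINC02840, TMEM161B-DT, LINC01029, CCDC144NL-AS1, LINC01287 and CCDC26, against 19.8% of all tested genes. Among these 7, ENSG00000266976 alone passed as higher with TMM as reported. Settings without a GC step also gave more higher calls, 4 with library size alone and 10 with scaling on abundant genes.

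**Figure D4:**
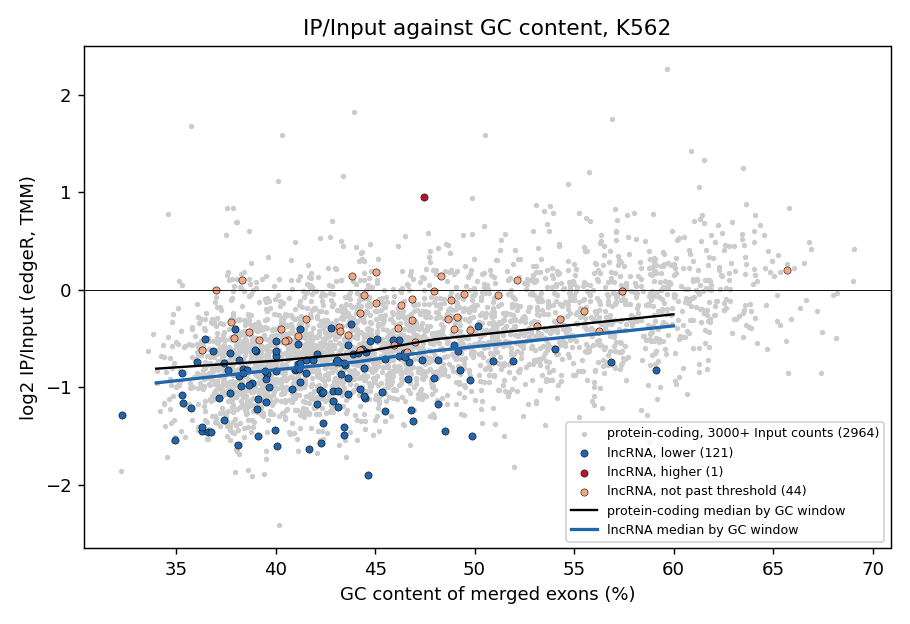
Log2 IP/Input (y axis) against the GC content of merged exons in percent (x axis) for the 166 lncRNA genes (coloured by call) and 2964 protein-coding genes with at least 3000 Input counts (grey). Both lines, medians by GC window, rise to the right, and the lncRNA line lies below the protein-coding line in all 5 windows.

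Relative to length, the order of Input levels changed. Merged exons of the 166 genes ran from 385 to 51118 bp (median 5903.5), and Input CPM per kb ran from 2.91 for TMEM161B-DT to 658.3 for MIR4713HG (median 37.9). MIR4713HG, with 561 bp of exon, was the 34th gene by Input counts and had 4438, 4203 and 3872 of them. ENSG00000230258 was second per kb at 637.3 and 10th by counts, and CCDC26, first by counts, is the longest of the set. ENSG00000266450, ENSG00000227681 and EPS15-AS1 followed at 559.4, 550.6 and 540.2 CPM per kb. Exon lengths come from a later annotation release than the counts, so levels per kb are approximate, and the short models lie at the top.

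**Figure D5:**
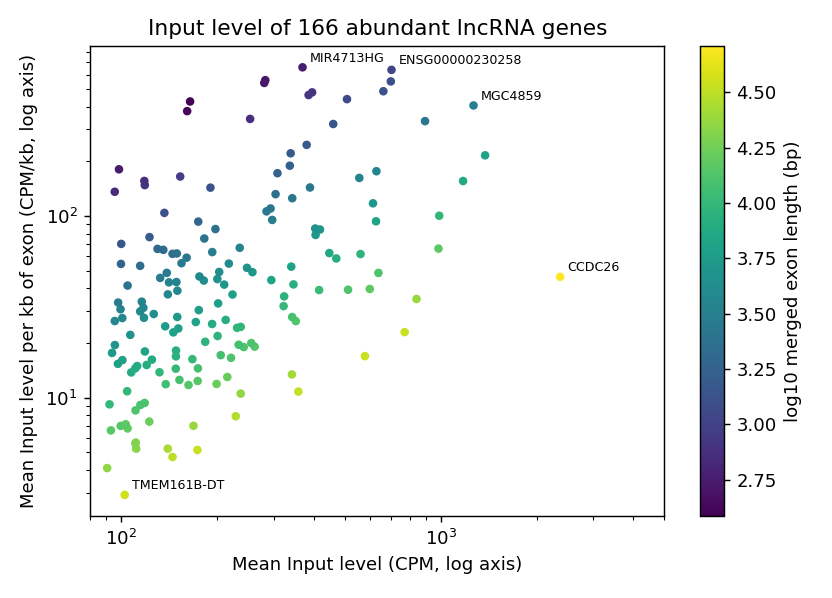
Mean Input level of the 166 lncRNA genes in CPM (x axis, log) against the same level per kb of merged exon (y axis, log), coloured by log10 exon length. Short genes such as MIR4713HG lie at the top at 658.3 CPM per kb and long genes such as TMEM161B-DT at the bottom at 2.91.

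The genes were spread over all 22 autosomes, with 18 on chromosome 2, 15 on chromosome 5 and 14 each on chromosomes 1 and 4. Of the 166, 84 overlapped no protein-coding gene body and lay a median of 95855 bp from the nearest one. Within 1 Mb of each other lay 28 genes in 13 clusters, the largest of 4 genes at the end of the short arm of chromosome 18. These 4, ENSG00000263551, LINC00470, ENSG00000266602 and ENSG00000266450, were all lower, at −0.92, −0.68, −0.82 and −0.81. Lower calls covered 72.9% of the set, 52.8% of the abundant protein-coding genes and 16.4% of all tested genes. LINC00470 overlaps ENSG00000263551, and ENSG00000266450 lies within ENSG00000266602. None of the 4 passed after the GC correction, where LINC00470 stood at 0.01 and the other 3 at −0.41, −0.08 and −0.15. A protein-coding gene started on the opposite strand within 1000 bp of 30 genes. In 26 of these pairs both partners were tested, and the lncRNA lay below its partner in 16, with a median difference of −0.20. No level was asked of the partners, and RNF32 and CCNG1, far above their lncRNAs, had 478 and 712 Input counts. Where the partner also had at least 3000 Input counts, the lncRNA lay above UBA6, RFX3, MAP4K3, SETD2, TMEM161B and LSS. It lay below GMDS, REV3L, SLC2A1 and STX18. TMEM161B-DT lay furthest on the other side of those named here. It stood at −0.00075 and its partner TMEM161B at −1.26, a difference of 1.26 that was not tested.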

How the data were processed

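Gene counts of K562 and mESC caRNA Input and m5C-IP libraries were used as the authors deposited them, as raw HTSeq-style counts per Ensembl gene. Per the labels and methods, reads were trimmed (Trimmomatic 0.39) and aligned (HISAT2 2.1.0) to hg38 or mm10 with GENCODE annotation. For peak calling the authors removed duplicates (Picard MarkDuplicates) and split reads by strand (SAMtools 1.16.1). Whether the deposited counts were made from those reads is not given in the sources used here, and overlapping genes may lose reads. Summary rows (26.0 to 26.2% of K562 Input records, 60.7 to 61.4% of IP) were left out of library sizes and tests. Spike-in counts and the mESC peak lists were not used here.

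Biotypes, exon lengths and GC content came from GENCODE 44 (M21 for mouse), and 99.2% of human gene IDs matched. Each line was tested with edgeR 4.0.16 (R 4.3.3), using TMM, filterByExpr, the quasi-likelihood test and Benjamini-Hochberg adjustment over all tested genes at 0.05. SE is the absolute log2 fold change over the square root of F. On simulated K562 counts 143 of 200 genes changed 2-fold and 180 of 200 changed 3-fold were recovered. Named genes were the 10 highest in Input, the 8 highest and 8 lowest ratios among calls without overlap, described lncRNAs and the 3 genes on each side of the level. The genes and lists were chosen with earlier results of these data known. Intervals cover counting error and library spread only. DESeq2 1.42.0 and other settings were alternatives.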

Additional observations from a re-analysis of the deposited data

How the results depend on the processing

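Counts of calls depended on the scaling and on the number of genes tested. The 166 lncRNAs gave 121 lower and 1 higher as reported. They gave 76 and 4 with library size alone, 31 and 10 with TMM over genes with at least 3000 Input counts, and 18 and 7 with the GC correction. With Input thinned to the IP depth only 3210 genes were tested. Among the 151 lncRNAs tested there, 19 were lower and 3 higher. The shares over all genes tested there were 5.08% lower and 10.9% higher, and 5.1% of the abundant protein-coding genes were lower. Chosen on 2 Input libraries and tested against 1, the lncRNAs gave 32 and 2, 31 and 2, and 34 and 4. Without single Input libraries 36 to 44 were lower and 6 higher, with 3721 to 3726 genes tested. Without single IP libraries 107 to 121 were lower and 1 higher, against 13.3 to 13.8% of all tested genes lower and 11.6 to 13% higher. RLE (105), DESeq2 (107), no filter (151) and the summed Input (91, an alternative chosen after seeing the data) kept the number lower within 1.5 times, each with 1 higher. The shares lower in that order were 12.2%, 5.29%, 12.7% and 9.41% of all tested genes. They were 41%, 41.8%, 78.5% and 35.2% of the abundant protein-coding genes. Among all tested genes the higher share of calls was 47.9% as reported, 57.1% with RLE, 70.2% with library size alone and 90.9% with scaling on abundant genes. All genes called were 4576 as reported, 2191 higher and 2385 lower, and 3340 and 334 with scaling on abundant genes. At a level of 6000 Input counts 88.1% of lncRNAs were lower, and at 1500 counts 51.9%, against 72.9% at 3000 and 16.4% of all tested genes. The median log2 IP/Input at 6000, 3000 and 1500 was −0.74, −0.73 and −0.65. Median summed IP counts per gene were 69, 40.5 and 26, so the shares also follow how many counts each test had. Protein-coding genes were not counted at 6000 or 1500.

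Whether the replicate numbers pair the libraries could not be settled. Deviations of same-numbered K562 Input and IP libraries correlated at 0.03, 0.03 and 0.06, and each library correlated best with its own number. The spread between Input libraries was near counting noise, so such correlations would be low with or without pairing. With the replicate number as a block 114 were lower and 1 higher, against 13.8% and 13.3% of all tested genes. With the block and the GC correction 15 were lower and 7 higher, against 1.49% and 17.1%. The abundant protein-coding genes were lower in 48.2% and 5.2% of cases under these settings. In mESC the Dleu2 value ranged from −1.22 with library size alone to −2.67 with no filter and was −2.22 with the block, and it passed in each alternative run.

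Of the 26 named genes, 7 kept the same call in every alternative in which they were tested. The sign turned as follows, on the log2 scale, and the cause was not tested. Under the GC correction, without and with the block, CCDC26 stood at 0.35 and 0.34, ENSG00000189229 at 0.17 and 0.17, MIR3667HG at 0.18 and 0.17, MIR3681HG at 0.026 and 0.021, LINC00534 at 0.098 and 0.098, LINC02476 at 0.0057 and 0.0034, EPIC1 at 0.00046 and 0.00049, ENSG00000230258 at 0.046 and 0.048, ENSG00000285822 at 0.23 and 0.23, TTN-AS1 at 0.12 and 0.11, COPB2-DT at 0.18 and 0.18 and MCM3AP-AS1 at 0.40 and 0.40. With TMM over abundant genes CCDC26 stood at 0.15, ENSG00000189229 at 0.019, MIR3667HG at 0.54, EPIC1 at 0.029, ENSG00000230258 at 0.041, ENSG00000285822 at 0.16, COPB2-DT at 0.13 and MCM3AP-AS1 at 0.45. MIR3667HG and MCM3AP-AS1 stood at 0.11 and 0.022 with RLE, 0.26 and 0.17 with library size alone, 0.093 and 0.0039 with DESeq2, and 0.46 and 0.30 with thinned Input, where ENSG00000285822 stood at 0.10. PAX8-AS1 stood at −0.20 with no filter. Without single libraries the values ran from −0.57 to 0.053 for CCDC26, −0.53 to 0.032 for COPB2-DT, −0.51 to 0.074 for ENSG00000285822, −0.27 to 0.35 for MCM3AP-AS1, −0.25 to 0.44 for MIR3667HG and −0.14 to 0.59 for PAX8-AS1. The upper ends came from fits without 1 Input library, where the median of the set stood at −0.29. A median of 40.5 IP counts per gene limits the single ratios.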
